A study of Mus musculus with 117 samples.

Results

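Chromatin states of hepatocytes, the cells that make up most of the liver, were compared between C57BL/6J and A/J, which are both long-established inbred laboratory strains of the mouse. The comparison covered the 12313718 bins of 200 bp on the 19 autosomes, and each bin carries 1 of 14 state numbers in each strain. A switched segment is an unbroken run of 5 or more bins (1 kb or more) in states 1, 2 or 3 in one strain and in states 13 or 14 in the other. There were 854 such segments, out of 37754 runs of 1 kb or more in states 1 to 3 in C57BL/6J and 34518 in A/J. Of these, 529 were active in C57BL/6J and silent in A/J, and 325 were silent in C57BL/6J and active in A/J. They are called C57BL/6J-active and A/J-active segments.

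The series is a chromatin immunoprecipitation sequencing (ChIP-seq) survey of 9 inbred strains with 117 libraries. Both strains compared here were represented by females 12 weeks old, with no treatment named. From each strain 3 mice gave a library for each of 4 marks, namely H3K27ac, H3K27me3, H3K4me1 and H3K4me3, and 1 input library brought the total to 13. The authors combined the libraries of a strain in 1 segmentation, so each strain is 1 value, and no error between mice, no test and no p-value can be given. Every difference below is therefore a description of these segmentations, and the sequencing depth behind them is unknown.

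Histone marks divide the genome into regions with different uses. H3K4me3 marks the starts of genes in use, H3K4me1 marks enhancers, H3K27ac marks starts and enhancers that are in use, and H3K27me3 is laid down by Polycomb proteins on silenced genes. A segmentation reads the marks together and gives each stretch of the genome the number of a recurring combination. Which marks make up each state is not given in the sources used here, so "active" and "silent" name sets of state numbers only. Bins of the active set were counted at the starts of known genes. Both sets were chosen with earlier results of these data known. The counts at hepatocyte and ubiquitously expressed genes therefore describe the active set and are not an independent check of it. All 16 hepatocyte marker genes with an annotated start had a bin in states 1 to 3 within 1 kb of it in both strains, as did 14 of 14 ubiquitously expressed genes. None of 23 developmental regulators and none of 9 lymphocyte markers did in either strain. Of the markers of other liver cells, 1 of 10 Kupffer cell genes had such a bin in C57BL/6J and 0 in A/J, 5 and 3 of 11 endothelial genes, 1 and 1 of 10 stellate and fibroblast genes, and 3 and 3 of 8 bile duct genes.

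Gene starts were rarely inside a switched segment, and the promoters of 6 of the exceptions are shown here. A start counts where its own bin lies in the segment, so the window before it need not lie wholly inside. In the Zfp872 window the segment begins at chr9:22188001, and the bases before that were in state 14 in both strains. Of 16457 protein-coding genes with an annotated start, 11 (0.0668%) had one in a C57BL/6J-active segment and 2 (0.0122%) in an A/J-active segment. Sequences are the 250 bases before the start from the RefSeq promoter table of GRCm38.p6 (mm10), read in the direction of transcription, with CG dinucleotides in capitals. CG dinucleotides are dense in the promoters of many widely used genes and sparse in many that are restricted to a tissue. The windows are chr7:30314566-30314815 on the plus strand for Syne4, chr7:104315496-104315745 on the minus strand for Trim12a, chr7:104507850-104508099 on the minus strand for Trim30d, chr14:55617916-55618165 on the plus strand for Rec8, chr9:22187916-22188165 on the plus strand for Zfp872 and chr2:127541418-127541667 on the minus strand for Prom2.
Syne4: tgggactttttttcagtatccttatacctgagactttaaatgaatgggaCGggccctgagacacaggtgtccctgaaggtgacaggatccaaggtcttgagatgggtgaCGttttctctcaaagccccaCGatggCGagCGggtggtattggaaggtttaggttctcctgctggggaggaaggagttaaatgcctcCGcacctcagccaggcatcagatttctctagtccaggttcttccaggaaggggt
Trim12a: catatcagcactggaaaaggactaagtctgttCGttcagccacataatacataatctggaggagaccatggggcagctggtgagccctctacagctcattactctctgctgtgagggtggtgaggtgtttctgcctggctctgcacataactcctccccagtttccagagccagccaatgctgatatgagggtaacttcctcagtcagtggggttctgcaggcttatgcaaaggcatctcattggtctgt
Trim30d: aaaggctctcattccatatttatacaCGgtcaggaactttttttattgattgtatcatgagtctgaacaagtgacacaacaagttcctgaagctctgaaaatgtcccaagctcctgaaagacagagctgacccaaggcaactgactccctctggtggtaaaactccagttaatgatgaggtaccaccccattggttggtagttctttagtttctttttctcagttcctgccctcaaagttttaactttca
Rec8: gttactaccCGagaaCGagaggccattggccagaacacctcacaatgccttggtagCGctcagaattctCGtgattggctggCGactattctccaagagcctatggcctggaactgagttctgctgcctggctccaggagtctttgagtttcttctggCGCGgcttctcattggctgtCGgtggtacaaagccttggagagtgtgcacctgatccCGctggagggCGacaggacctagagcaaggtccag
Zfp872: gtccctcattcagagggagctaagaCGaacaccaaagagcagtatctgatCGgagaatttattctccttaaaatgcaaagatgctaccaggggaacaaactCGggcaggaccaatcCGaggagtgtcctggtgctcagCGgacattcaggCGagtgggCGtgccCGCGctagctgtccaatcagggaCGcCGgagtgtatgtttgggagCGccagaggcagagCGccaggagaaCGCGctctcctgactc
Prom2: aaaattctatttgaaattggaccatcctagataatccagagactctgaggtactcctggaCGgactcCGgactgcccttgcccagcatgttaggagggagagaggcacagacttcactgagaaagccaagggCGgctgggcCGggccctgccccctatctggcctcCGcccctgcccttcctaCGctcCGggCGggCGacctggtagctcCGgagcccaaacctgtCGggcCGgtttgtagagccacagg
The first 5 genes were active in C57BL/6J at the start and the last in A/J. CG dinucleotides numbered 6 in the Syne4 window, 1 in Trim12a, 1 in Trim30d, 10 in Rec8, 15 in Zfp872 and 12 in Prom2. The 2 Trim windows thus held few and the Zfp872 window many.

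Over the full RefSeq windows of 300 bases (250 before to 50 after the start), the 13 promoters inside C57BL/6J-active segments had a median of 9 CG dinucleotides, and the 2 inside A/J-active segments a median of 10.5. The median was 14 over all 20085 protein-coding promoters and 20 over the 12137 promoters of genes with an active bin near the start in either strain. The medians of both sets lay below both of these, but Rec8 with 18, Zfp872 with 17 and Prom2 with 15 lay above the median of all promoters. Motifs were searched on both strands, 5 in all. The CCAAT box was found in 9 of the 13 promoters, or 69.2%, against 38.1% of all promoters. It was in 38.5% of the promoters of genes with an active bin near the start in either strain. The 13 promoters belong to 11 genes, and the windows of Pla2g2c and Ubxn10 overlap and share a CCAAT match. The motif TATAAA was in 1 of the 13 (7.69%, against 12.7% of all promoters and 7.52% of those with an active bin near the start). The motif GTTAAT was also in 1 (7.69%, against 6.23% and 4.80% of these 2 sets), and both motifs were in Trim30d. The motif CAAAGTCCA was in none of the 13 and in 0.463% of all promoters. The motif TTGCGCAA was likewise in none, and in 0.219% of all. Such matches describe the letters of the reference strain and are not binding sites.

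The states around these starts differed between the genes as well as between the strains. Syne4 encodes nesprin-4, a protein of the outer nuclear membrane that links the nucleus to the cytoskeleton. Its start lay in a C57BL/6J-active segment of 2600 bp, chr7:30313601-30316200, which also touched its neighbour Alkbh6. All 13 bins were active in C57BL/6J, 12 of them in state 1, and all 13 were in state 14 in A/J. All 13 were also active in 129S1/SvImJ, NOD/ShiLtJ and WSB/EiJ, 11 in NZO/HlLtJ and 8 in PWK/PhJ, and all 13 were in state 14 in CAST/EiJ and DBA/2J. A/J thus shared the silent form of Syne4 with a wild-derived and a laboratory strain, and 5 strains had the C57BL/6J form.

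Trim12a and Trim30d belong to a cluster of tripartite motif genes, a family of ubiquitin ligases with members in antiviral defence. The Trim12a start lay in a segment of 2000 bp, chr7:104313801-104315800, where C57BL/6J had 10 of 10 bins active and A/J had 10 of 10 in state 14. In the other strains 4 bins were active in CAST/EiJ, 3 in NZO/HlLtJ, 3 in WSB/EiJ and none in 129S1/SvImJ, DBA/2J, NOD/ShiLtJ and PWK/PhJ. A further segment in Trim12a, chr7:104306201-104308200, was silent in all 7 other strains. At the Trim30d start, chr7:104506401-104508600, C57BL/6J had 11 of 11 bins active, PWK/PhJ 9, NOD/ShiLtJ 7 and each of the remaining strains, A/J included, none. With 1 more segment in Trim30d and 1 in Trim5, the window chr7:104000001-105000000 held 5 C57BL/6J-active and 0 A/J-active segments. Trim genes of this cluster are near copies of each other, and how reads were shared between copies is not given in the sources used here, so these values are uncertain.

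Rec8 encodes the meiotic cohesin subunit, and its segment, chr14:55617601-55619000, had 7 of 7 bins active in C57BL/6J, 3 in PWK/PhJ, 2 in WSB/EiJ and 0 in A/J and the other 5 strains. Upstream of this segment A/J had active bins too, as the map of states around the starts shows. Zfp872, a zinc finger gene, showed the reverse distribution over the strains. In its segment of 1000 bp, chr9:22188001-22189000, all 5 bins were active in C57BL/6J, 129S1/SvImJ, CAST/EiJ, NOD/ShiLtJ and WSB/EiJ, 4 in DBA/2J and 3 in PWK/PhJ. A/J had all 5 in state 14, and NZO/HlLtJ had 3 in state 9 and 2 silent. At this start A/J was the only strain of the 9 with no bin outside states 13 and 14.

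Prom2, for the membrane glycoprotein prominin-2, was the named gene with a start in an A/J-active segment (chr2:127540401-127542400, 2000 bp). A/J had 10 of 10 bins in state 1, 129S1/SvImJ 9 and NOD/ShiLtJ 6, while C57BL/6J had 9 in state 13 and the last in state 14. The other strains ranged from 3 active bins in NZO/HlLtJ to none in CAST/EiJ, DBA/2J, PWK/PhJ and WSB/EiJ, and the most frequent state was 10 in CAST/EiJ, 6 in DBA/2J, 14 in PWK/PhJ and 13 in WSB/EiJ. The strains thus carried 5 different leading states at Prom2. The second A/J-active start belonged to the gene model Gm550, whose 8 bins were active in A/J and all in state 14 in each of the other 8 strains; it falls outside the naming rule and is given because there were only 2.

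**Figure D1:**
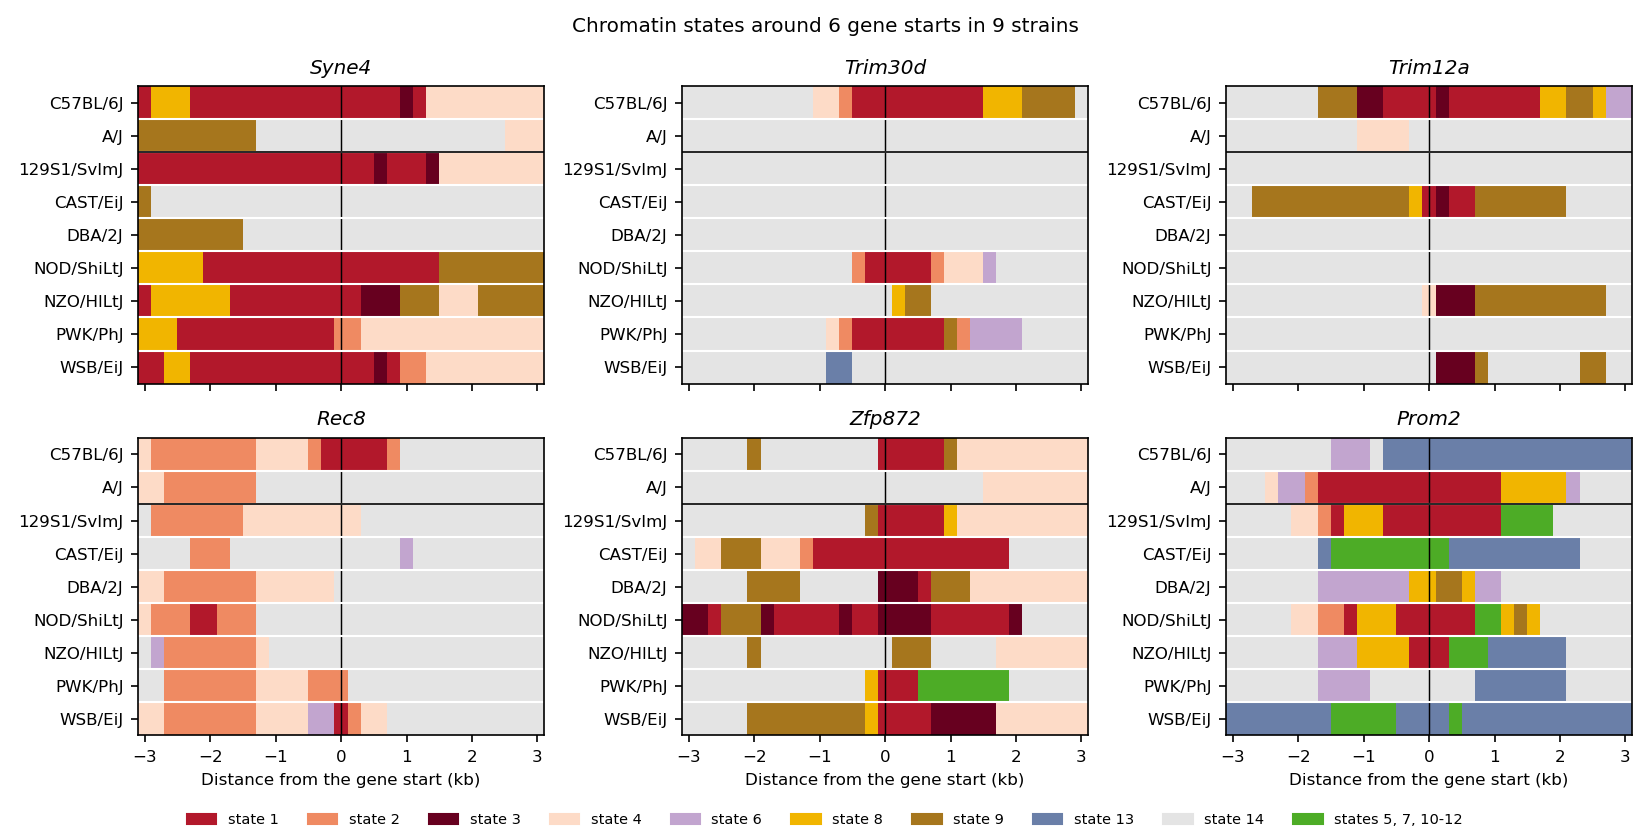
State of each 200-bp bin (colour) within 3 kb of 6 gene starts in 9 strains, with distance in kb in the direction of transcription on the horizontal axis and C57BL/6J and A/J above the black line. States 1 to 3 (red, orange and dark red) lie at the start in C57BL/6J and state 14 (grey) in A/J for the first 5 genes, and at Prom2 A/J is red and C57BL/6J is blue (state 13).

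The remaining starts inside C57BL/6J-active segments belonged to Eps8l1, an adaptor related to the actin regulator Eps8, Pafah2, a platelet-activating factor acetylhydrolase, Cyp2c39, a cytochrome P450 (a heme enzyme that oxidises drugs, steroids and fatty acids), the neighbours Pla2g2c and Ubxn10, which shared a segment, and 2200002J24Rik. In some of these genes the segment held only part of the annotated starts. It held 1 of 2 annotated starts of Cyp2c39, 1 of 3 of Eps8l1, 2 of 4 of Ubxn10 and 2 of 4 of Pafah2. Over all starts of Ubxn10 together, none of the bins within 1 kb were active in A/J and 32.3% were in C57BL/6J. Over all starts of a gene together, 50% of the bins within 1 kb were active in A/J for Cyp2c39, 53.6% for Pafah2 and 8.70% for Eps8l1, and the C57BL/6J shares were 81.8%, 71.4% and 47.8%. By a looser measure, any active bin within 1 kb of a start, 8998 genes were active at the start in both strains, 405 in C57BL/6J alone, 105 in A/J alone and 6949 in neither.

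Starts were much rarer in switched segments than in active chromatin at large. Without chromosome 18, for which the promoter table gave no starts, a protein-coding start lay in 7758 of 36506 active runs of C57BL/6J (21.3%) and in 7279 of 33366 active runs of A/J (21.8%). It lay in 10 of 517 C57BL/6J-active segments (1.93%) and in 2 of 317 A/J-active segments (0.631%). A segment is a part of an active run, so it can only be as long as its run or shorter. The median was 1200 bp for segments in both directions, and 2000 bp for all runs and for the runs that enclosed the segments. The shares with a start were not adjusted for this difference in length.

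The segmentations gave the same state to 86.4% of the bins, with a Cohen's kappa of 0.661. Kappa measures matching beyond what 2 segmentations with these state frequencies would reach if they were unrelated. This was rank 9 from the highest of the 36 strain pairs, whose kappa ran from 0.474 to 0.699. The strains differed in how much of the autosomes each state took. State 13 took 9.40% in C57BL/6J, the lowest of the 9 strains, and 12.8% in A/J, the second highest. State 2 took 2.69% in C57BL/6J, the highest, and 2.03% in A/J. State 6 was at 2.38% in C57BL/6J and at 3.04% in A/J, the highest. States 8 and 9 were at 0.492% and 0.549% in C57BL/6J and at 0.926% and 0.971% in A/J. States 5 and 7, both rare, were lower in A/J than in any other strain, at 0.0138% and 0.0209% against 0.0377% and 0.0454% in C57BL/6J. States 1 to 3 together took 5.41% in C57BL/6J, rank 2 of 9, and 4.77% in A/J, the lowest of the 9. Most of this gap lay in state 2. State 1 took 2.33% in C57BL/6J, rank 8 of 9, and 2.37% in A/J, rank 7. State 3 took 0.396% and 0.373%. The part of these shares in the counts of segments below was not tested.

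**Figure D2:**
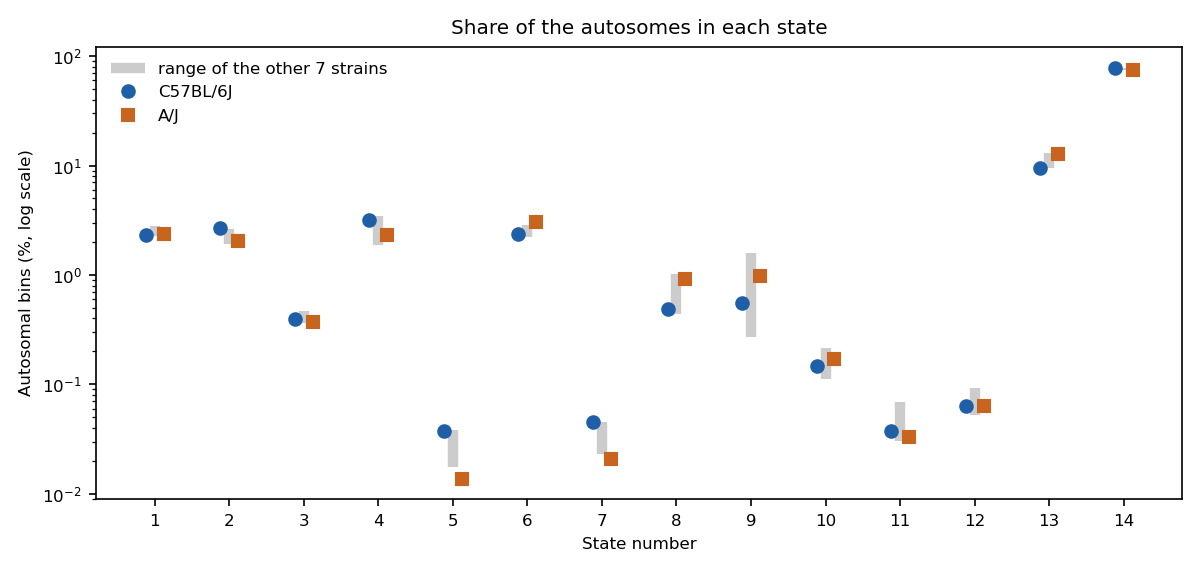
Share of autosomal 200-bp bins in each of the 14 states, in percent on a log axis, for C57BL/6J (circles), A/J (squares) and the range of the other 7 strains (grey bars). C57BL/6J lies below the grey bar in state 13 (9.40%) and above it in state 2, and A/J lies above it in state 6 and below it in states 5 and 7.

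Most differing bins were exchanges between the 2 silent states. Of 1668645 differing bins, 54.1% exchanged states 13 and 14, with 663077 bins in state 14 in C57BL/6J and 13 in A/J and 240405 the other way, a ratio of 2.76. States 4 and 14 came next with 142519 bins in state 4 in C57BL/6J against 66075 in A/J, and states 6 and 14 with 46730 against 79625. States 9 and 14 were exchanged in 45454 bins with A/J in state 9 and in 4071 with C57BL/6J in state 9, 11.2 times as many.

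Within chromatin outside state 14, C57BL/6J bins in states 1, 2 and 4 often carried state 6, 8 or 9 in A/J. State 2 in C57BL/6J was state 6 in A/J in 59972 bins and the reverse held in 15403. For states 1 and 8 the counts were 28453 and 4208, for states 4 and 6 they were 21142 and 4515, and for states 6 and 8 they were 14795 and 2380. The ratio was highest among these for states 2 and 8, with 9316 bins against 217, and for states 4 and 9, with 6725 against 240. States 1 and 2 went the other way, with 44552 bins in state 2 in C57BL/6J and 1 in A/J against 13918. State 1 was kept to a like degree from either side, since 80.7% of C57BL/6J bins and 79.5% of A/J bins of state 1 carried it in the other strain. State 2 was kept in 56.2% of C57BL/6J bins and 74.5% of A/J bins, and state 8 in 79.2% and 42.1%. A/J was on the state 8 side of the exchange of 1 and 8 in over 50% of the bins against all 7 other strains, and C57BL/6J against 1 of them. These comparisons share C57BL/6J or A/J.

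**Figure D3:**
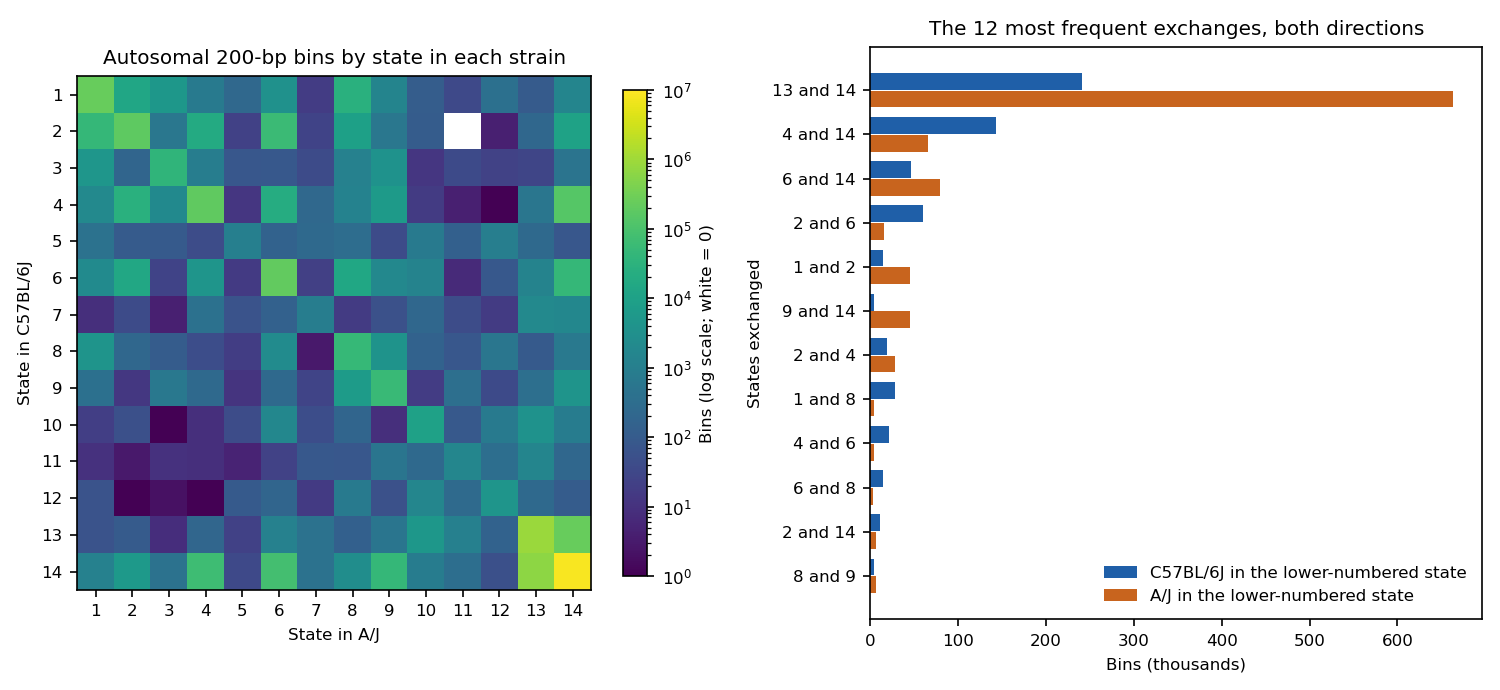
Left, number of autosomal 200-bp bins for each combination of state in C57BL/6J (rows) and A/J (columns), on a log colour scale. Right, the 12 most frequent exchanges as bins (in units of 1000), with C57BL/6J (blue) or A/J (orange) in the lower-numbered state; the orange bar is longer for 13 and 14 (663077 against 240405 bins) and the blue bar for 4 and 14.

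Direct exchange between active and silent states was a small part of the difference. Of the bins active in C57BL/6J, 78.5% were active in A/J, 19.5% were in states 4 to 12 and 1.97% (13158 bins) were silent. Of the bins active in A/J, 89.2% were active in C57BL/6J, 9.51% were in states 4 to 12 and 1.31% (7660 bins) were silent. Most bins active in only 1 of the 2 strains thus carried a state of neither set in the other. Among active runs of 1 kb or more, 83.1% of those of C57BL/6J were active over 50% or more of their length in A/J, and 94.5% of those of A/J were in C57BL/6J. Wholly silent in the other strain were 259 runs of C57BL/6J (0.686%) and 159 runs of A/J (0.461%).

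The 529 C57BL/6J-active segments covered 808 kb and the 325 A/J-active segments 498 kb, a ratio of 1.63 in number. The longest had 8200 and 5600 bp. At the limit of length, 160 and 111 segments had exactly 1 kb, and 299 and 186 runs were 1 bin too short. State 2 made up 73.3% of the active bins in C57BL/6J-active segments, against 49.6% of all active bins of that strain, and 68.9% in A/J-active segments, against 42.5%. State 3 made up 2.70% and 4.41%, against 7.31% and 7.82% of all active bins. On the silent side the segments were almost wholly state 14, with 96.3% of bins in A/J and 95.6% in C57BL/6J, and only 16 and 10 segments were mostly state 13.

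By a limit of 1 kb, most segments were not edges of a shared active region. The segment filled the whole active run of its active strain in 259 C57BL/6J-active and 159 A/J-active cases. The silent strain had an active bin within 1 kb of either edge in 109 C57BL/6J-active segments (20.6%) and in 48 A/J-active segments (14.8%). Within 5 kb the shares were 46.7% and 41.2%. In 213 and 158 segments the 1 kb on each side held other states but no active one, and in 207 and 119 it was wholly silent. In the silent strain, state 14 filled 68.3% and 69.9% of the flanking bins and state 6 filled 13.5% and 13.6%. In the active strain state 4 was the most frequent flanking state, with 32.4% of the bins around C57BL/6J-active and 26.6% of those around A/J-active segments.

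The other 7 strains were divided over the segments. A strain counted as active or silent in a segment where 50% or more of the bins were. No other strain was active in 97 C57BL/6J-active segments (18.3%) and in 40 A/J-active segments (12.3%), and all 7 were active in 14 and 6. All 7 were silent in 35 and 16 segments, where the active form was found in 1 of 9 strains. At least 4 were active in 29.7% and 30.8%. C57BL/6J-active segments were active in 30.4% of cases in NOD/ShiLtJ, the lowest, and in 41.2% in NZO/HlLtJ, the highest. A/J-active segments were active in 49.8% in NOD/ShiLtJ, 46.2% in 129S1/SvImJ, 42.8% in DBA/2J and 40.9% in NZO/HlLtJ. The shares were 36.3% in WSB/EiJ, 27.4% in CAST/EiJ and 24.6% in PWK/PhJ. NOD/ShiLtJ was thus the strain with the most A/J-active and the fewest C57BL/6J-active forms. Bins of the other strains that were neither active nor silent made up 21.8% in C57BL/6J-active and 18% in A/J-active segments, mostly states 4 and 6.

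**Figure D4:**
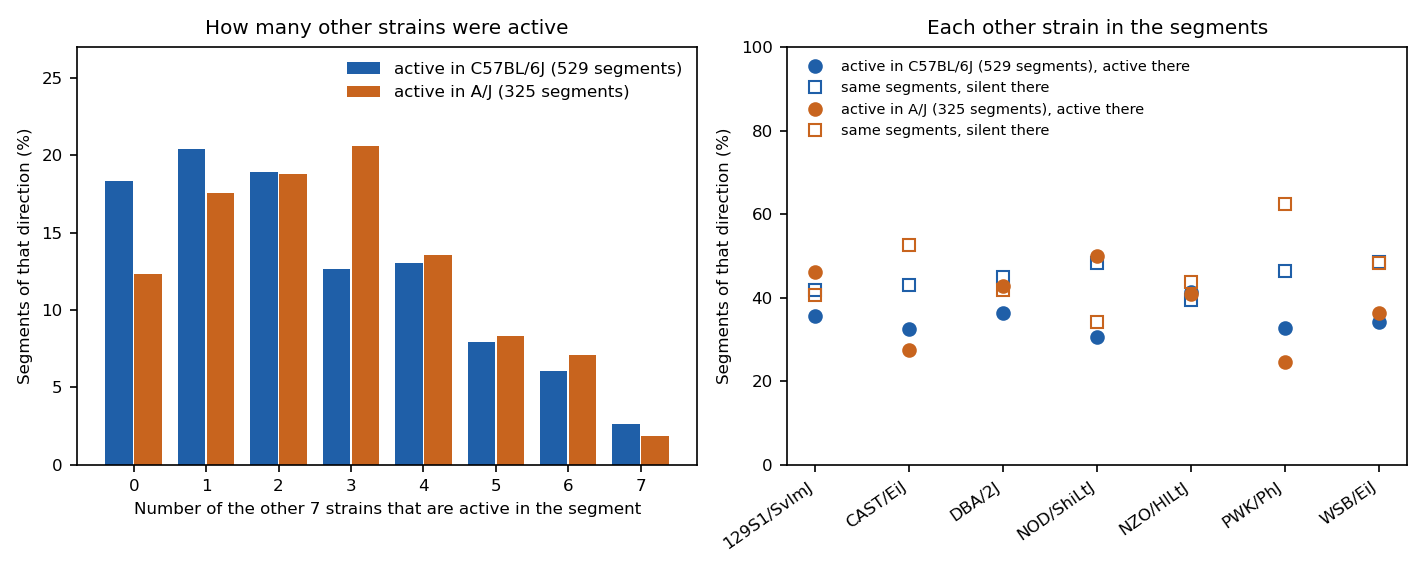
Left, percentage of C57BL/6J-active (blue) and A/J-active (orange) segments in which 0 to 7 of the other strains were active. Right, percentage of each set in which each other strain was active (filled circles) or silent (open squares), where A/J-active segments run from 24.6% active in PWK/PhJ to 49.8% in NOD/ShiLtJ.

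Segments touched 236 protein-coding genes (1.14% of 20665 on the autosomes) when active in C57BL/6J and 128 (0.619%) when active in A/J. A gene was touched where its annotated span shared sequence with a segment. In both directions 6 genes were touched, Fmn2, Slc39a11, Robo1, Ror1, Mtmr7 and Sipa1l2. Touched genes had a median span of 57.6 kb and 90.0 kb against 17.5 kb for all. A longer span is more likely to share sequence with a segment wherever segments lie. The difference in span is therefore built into the measure and was not adjusted for. Within protein-coding spans lay 58.2% of the bins of C57BL/6J-active and 47.6% of the bins of A/J-active segments, against 69.1% and 67.9% of all active bins of these strains and 40.1% of all bins. Of the touched genes 47 and 24 had 2 or more segments.

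The longest C57BL/6J-active segment had 8200 bp in Snap47, a gene of the SNARE family of membrane fusion proteins (chr11:59421001-59429200). All 41 bins were active in C57BL/6J and in state 14 in A/J. DBA/2J and NOD/ShiLtJ had 39 active bins each, 129S1/SvImJ 33, WSB/EiJ 27, CAST/EiJ 19, NZO/HlLtJ 15 and PWK/PhJ none. The Snap47 start itself was as active in A/J as in C57BL/6J, with 90.9% of the bins within 1 kb in both. Rtf2, Usp48, St3gal4 and Cep170b, which also held one of the longest segments, likewise had equal shares of active start bins in both strains. The shares in C57BL/6J and A/J differed for Nhsl1 (63.6% and 45.5%), Crybg3 (54.5% and 36.4%) and Kdm2b (96% and 92%), and Gcnt7 and Cacna2d2 had no active start bin in either strain.

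St3gal4, a sialyltransferase that caps glycans of glycoproteins with sialic acid, had 3 C57BL/6J-active segments of 5200, 3400 and 3000 bp. In the longest, chr9:35084401-35089600, all 26 bins were in state 2 in C57BL/6J and all 26 in state 14 in each of the other 8 strains. In the second, chr9:35074001-35077400, all 17 bins behaved likewise. In the third, all 15 bins were in state 2 in C57BL/6J and 12 to 15 were in state 14 in every other strain. The St3gal4 start was active in all bins within 1 kb in both strains. A related gene, St3gal6, held the fifth longest segment (chr16:58509801-58514800, 5000 bp), which 3 other strains shared with C57BL/6J, and its start had 40.0% active bins in C57BL/6J and 0 in A/J. The second longest segment, chr19:17316201-17322000, touched no protein-coding gene and was like St3gal4 in form, with all 29 bins in state 2 in C57BL/6J and in state 14 in the other 8 strains.

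Nhsl1, a relative of the gene mutated in Nance-Horan syndrome, held the third longest (chr10:18367601-18373000, 5400 bp) and was nearly the mirror image. There 27 of 27 bins were active in C57BL/6J, 24 to 26 in 129S1/SvImJ, CAST/EiJ, NOD/ShiLtJ and NZO/HlLtJ, 16 in WSB/EiJ and 14 in PWK/PhJ, and all 27 were in state 14 in A/J and DBA/2J. The next were in Crybg3 (4200 bp), in Gcnt7, a glycan branching enzyme, with its neighbour Rtf2 (4200 bp), and in Usp48, a deubiquitinase (4000 bp), and 3, 5 and 4 other strains were active in them. The last of the 10, chr19:5405001-5408800 and chr9:42135201-42139000, touched no protein-coding gene.

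In the A/J-active direction 6 of the 10 longest segments touched no protein-coding gene, and the longest was chr13:103588801-103594400 with 5600 bp, active also in 129S1/SvImJ, NOD/ShiLtJ and WSB/EiJ. The others lay in Cacna2d2, an auxiliary subunit of voltage-gated calcium channels (4000 bp), Kdm2b, a histone demethylase that binds unmethylated CG islands (3800 bp), Cep170b, a centrosomal protein (3600 bp), and Adcyap1r1, the receptor of the neuropeptide PACAP (3600 bp). Cacna2d2 and Adcyap1r1 differed from most by their silent side. In the Cacna2d2 segment C57BL/6J had 16 of 20 bins in state 13. In the Adcyap1r1 segment C57BL/6J had 13 of 18 bins in state 13, and WSB/EiJ had 14 in state 13. In A/J, 129S1/SvImJ, CAST/EiJ and NOD/ShiLtJ all 18 were active, in DBA/2J and PWK/PhJ 17 and in NZO/HlLtJ 16. The Adcyap1r1 start was outside the active states in A/J and in C57BL/6J. Kdm2b was the opposite in its spread over strains, since 1 other strain, 129S1/SvImJ, was active in its segment and 6 were silent.

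Several lists of genes of hepatocyte function held no touched member. No switched segment touched any of 35 plasma protein and apolipoprotein genes, 22 coagulation genes, 21 complement genes, 16 acute phase genes, 26 genes of fatty acid oxidation, 24 of the urea cycle and amino acid breakdown, 26 hepatocyte transcription factors, 18 clock genes or 39 interferon response genes. With 1.14% and 0.619% of all protein-coding genes touched, a count of 0 in lists of this size is near the background. The start regions give more. The median share of bins that differed within 1 kb of the start was 0 for plasma protein, coagulation and urea cycle genes, 9.09 for fatty acid oxidation and acute phase genes, 18.2 for complement and cholesterol genes and 27.3 for interferon response genes, in percent, against 9.09 over all genes. This measure counts any change of state, exchanges between the silent states included. It was higher still in some other lists, such as lymphocyte markers (45.5%), where no start was active in either strain. Endothelial markers had 42.4% and sulfotransferases 40.9%.

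Of the lists for lipid synthesis (31 genes), cholesterol (25), bile acids (21) and glucose (28), 4 genes were touched, 1 in each list. All 4 were touched by C57BL/6J-active segments. With 1.14% and 0.619% of all protein-coding genes touched, a count of 0 or 1 in lists of this size is near the background. Abcc2, which exports conjugated bilirubin into bile, had 3 segments of 1000 bp between chr19:43822601 and chr19:43828000. C57BL/6J had all 5 bins of each in state 2 and A/J all 5 in state 14. In the other strains state 4 was the most frequent in 6 of 7 for each segment, NOD/ShiLtJ had all 5 bins in state 14 in 2 of them, and NZO/HlLtJ had 3 active bins in the last. Elovl6, which elongates fatty acids, had 1 segment of 1200 bp with 6 of 6 active bins in C57BL/6J, 5 in PWK/PhJ, 3 in DBA/2J and 0 to 2 in the rest. Cyp51, a demethylase of cholesterol synthesis, had 1 of 1800 bp with 9 of 9 active bins in C57BL/6J, CAST/EiJ, NOD/ShiLtJ and PWK/PhJ, and A/J was the only strain with a silent bin. Pygl, the liver glycogen phosphorylase, had 1 of 1200 bp that was in state 14 in A/J and DBA/2J and active in 5 or 6 of 6 bins in 129S1/SvImJ, NZO/HlLtJ, PWK/PhJ and WSB/EiJ. The starts of Abcc2, Elovl6 and Pygl were active in all bins within 1 kb in both strains, and that of Cyp51 in 90.9% in both.

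Of 97 cytochrome P450 genes, 4 were touched by C57BL/6J-active segments (4.12%, against 1.14% of all genes) and 2 by A/J-active ones (2.06%, against 0.619%). The 4 were neighbours in the Cyp2c cluster on chromosome 19: Cyp2c37 with 1 segment of 3000 bp, Cyp2c69 with 3 of 1200 to 1400 bp, Cyp2c39 with 1 of 1400 bp and Cyp2c40 with 1 of 1000 bp. In the Cyp2c37 segment, chr19:40003601-40006600, all 15 bins were in state 2 in C57BL/6J and in state 14 in A/J and NZO/HlLtJ, and no other strain had more than 4 active bins. The Cyp2c69 start was active in all bins within 1 kb in C57BL/6J and in 45.5% in A/J, and that of Cyp2c37 in all and in 63.6%. The Cyp2c40 start was active in all bins within 1 kb in both strains. At Cyp2c39, CAST/EiJ and PWK/PhJ also had 7 of 7 bins active. In the Cyp2c69 segments PWK/PhJ had 5 of 7, 2 of 7 and 4 of 6 bins active, and no other strain besides C57BL/6J had more than 1. These genes are close copies, and values for a single copy are uncertain. The A/J-active pair was Cyp46a1, the cholesterol 24-hydroxylase, with 1600 bp and Cyp4a32, of the fatty acid hydroxylases, with 1200 bp.

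Of the other families, 1 of 21 sulfotransferases (Sult2a7), 1 of 19 carboxylesterases (Ces1a), 1 of 38 genes of the major histocompatibility complex (H2-T22) and 3 of 388 Zfp genes (Zfp385b, Zfp872 and Zfp981) were touched by C57BL/6J-active segments. Among alcohol and aldehyde dehydrogenases (27 genes) Aldh16a1 was C57BL/6J-active and Adh7 A/J-active, each with 1 segment, and of 44 ABC transporters Abca17 was A/J-active with 2 segments and Abcc2 C57BL/6J-active. Zfp568, a zinc finger gene, and Reln, an extracellular protein listed with stellate cell markers, were A/J-active, with 1200 and 1800 bp. At 1.14% and 0.619% over all genes, a count of 0 or 1 in families of about this size is near the background. No segment touched the 21 UDP-glucuronosyltransferases, 22 glutathione S-transferases, 22 major urinary protein genes, 39 organic ion transporters, 62 Serpin genes, 1104 olfactory receptors or 354 vomeronasal receptors. The receptor lists had 0% touched, against 1.14% and 0.619% of all genes. These receptors are silent in liver, and 2 and 2 of their starts had an active bin in C57BL/6J and 3 and 2 in A/J. Over all genes, 57.1% of starts had one in C57BL/6J and 55.3% in A/J. A segment needs active bins in 1 strain, so a count of 0 says little about switching in these receptor lists.

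None of the 10 autosomal genes with alleles known to differ between these strains was touched by a segment. With 1.14% and 0.619% of all protein-coding genes touched, a count of 0 in a list of this size is near the background. Some of these genes differed at the start. H2-Eb1, a class II antigen presentation gene, had 0 active bins within 1 kb of its start in C57BL/6J and 90.9% in A/J. Naip2 and Naip5, sensors of bacterial proteins that lie in a cluster of near copies, had 54.5% and 18.2% in C57BL/6J and 0 in A/J, and Slc11a1, a metal transporter of macrophages, had 0 and 18.2%. Hc, which encodes complement component C5 that A/J lacks in serum, had all start bins active in both strains, as did Glo1. Nnt, from which C57BL/6J lacks exons, had 15.9% of its span active in C57BL/6J and 17.6% in A/J. Tyr and Tyrp1, the pigment genes mutated in A/J, had no active bin in either, and Dysf, which carries an insertion in A/J, had none at its start.

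Segments were spread unevenly. Their density ran from 0.161 per Mb on chromosome 10 to 0.586 on chromosome 19. C57BL/6J-active segments were the more numerous on every autosome except chromosome 15, which had 8 of them and 21 A/J-active ones. Of 2473 windows of 1 Mb, 1991 held no segment, and the 96 windows with 3 or more held 43.7% of all segments. The fullest windows had 9 each. In chr15:77000001-78000000 there was 1 C57BL/6J-active segment, in the apolipoprotein L gene Apol7e, and 8 A/J-active ones outside protein-coding genes. In chr19:47000001-48000000 there was 1 in Neurl1a and 8 A/J-active ones, 4 of them within 12 kb. In chr8:33000001-34000000 all 6 were C57BL/6J-active, and 4 lay in Gsr, the glutathione reductase that regenerates reduced glutathione. These genes were named after their windows were seen.

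**Figure D5:**
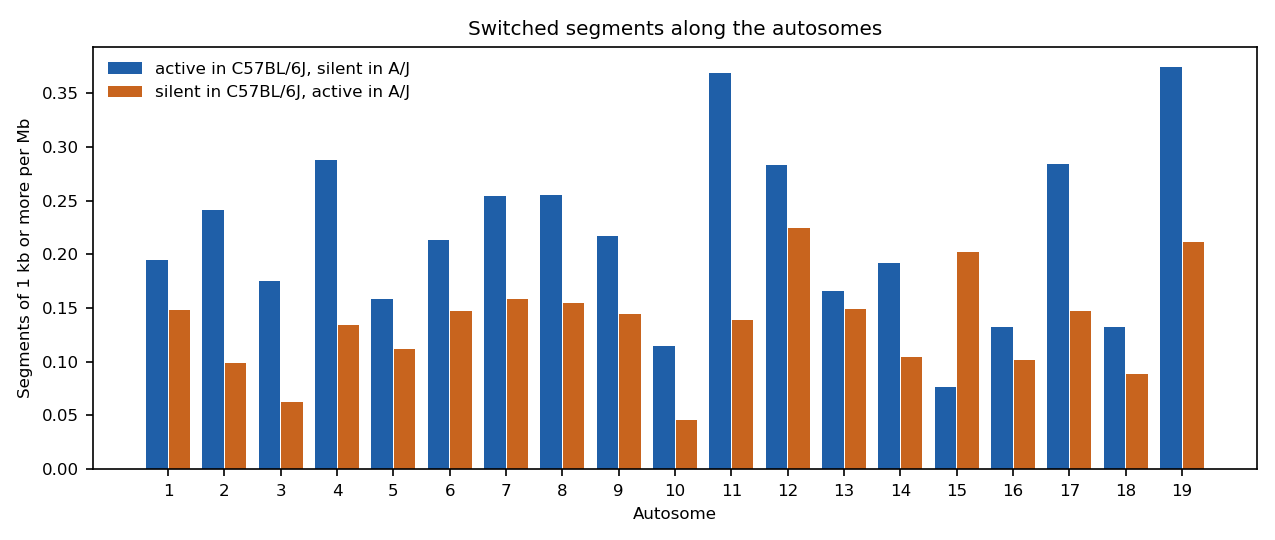
Switched segments of 1 kb or more per Mb on each autosome, active in C57BL/6J and silent in A/J (blue) or the reverse (orange). The blue bar is the higher on all autosomes except chromosome 15, with 8 against 21 segments.

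Over all autosomes 71.7% of the bins active in either strain were active in both. The share had a median of 71.1% over the 1506 windows of 1 Mb with 100 or more active bins, and went from 15.4% in chr12:26000001-27000000, the window of Rnf144a, to 90.1% in chr6:82000001-83000000. The window of Robo1 on chromosome 16 had 19.0% and the window of the Trim cluster 27.7%. A low share thus marked a few windows and not whole chromosomes, whose shares lay between 68.6% and 73.5%.

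Among strain pairs, the 854 segments were the second lowest number of 36, between 731 for A/J with NOD/ShiLtJ and 4545 for 129S1/SvImJ with PWK/PhJ. A/J had fewer active segments than its partner in 7 of 8 pairs, with a ratio of 0.599 to 0.774, and 1.04 against PWK/PhJ. C57BL/6J had between 0.865 and 1.63 times as many as its partner, with the lowest value against 129S1/SvImJ and the highest against A/J. These pairs share C57BL/6J or A/J and are not independent.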

How the data were processed

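The authors' deposited files are 1 segmentation per strain; per the file headers each belongs to the hepatocytes of 1 strain, and column 4 is a category, the state number, with no counts, signal or depth. Per the submitters' processing notes, FastQC 0.11.5, MACS 1.4.2 and genome build mm10 were used. The aligner, the segmentation tool, the marks of each state, and whether A/J reads were aligned to the C57BL/6J-based build or to a strain genome are not given in the sources used here. The part of the build in the results was not tested. Each segmentation was written as 200-bp bins, and segments, exchanges and gene overlaps were counted with Python 3.11.15, numpy 2.4.6, pandas 2.3.3 and matplotlib 3.10.9. Gene spans and 16457 gene starts (79.6% of 20665 autosomal protein-coding genes) came from RefSeq tables of GRCm38.p6, the assembly of mm10. Genes not matched to a start have none given. On simulated data all 100 and 60 planted segments were found.

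Libraries were grouped by the strain in their labels. Mice of a strain are combined, so there was no test. The sets of active and silent states, the gene lists, written from general knowledge, and the comparison itself were chosen with earlier results of these data known. Named genes were those of the 10 longest segments in each direction, up to 12 with a start in a segment (without Gm and Rik symbols and chromosome 18), list members with a start inside or, up to 4 per list, the most switched sequence, and all genes with alleles known to differ. H2-Ea-ps, of that list, had no entry in the gene table. Genes of the fullest windows and those touched in both directions were named after their values were seen. Alternatives changed the state sets, the minimum length, the matching of bins, the chromosomes, the gene span and the thresholds for other strains and for surroundings.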

Additional observations from a re-analysis of the deposited data

How the results depend on the processing

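C57BL/6J-active segments outnumbered A/J-active ones under all 9 alternatives for segments, with a ratio of 1.59 to 2.13. The number itself depended on the state sets and the length. C57BL/6J-active and A/J-active segments numbered 12170 and 5717, touching 3575 and 1981 genes, with states 1 to 4 as active. They numbered 13628 and 8574, touching 3989 and 2799, with states 1 to 4 and 6. With state 13 as the only silent state there were 15 and 9, touching 7 and 4. A minimum of 400 bp gave 2719 and 1633, touching 1066 and 536, and 2 kb gave 107 and 65, touching 55 and 27. Counting only genes with a start inside gave 11 and 2. The other alternatives for segments and touched genes stayed within 1.5 times the reported count. Bins with matching states made up 52.9% without bins in state 14 in both strains, 89.6% with a match within 1 bin, 93.8% with states 13 and 14 merged, 86.9% in 1000-bp bins and 87.0% with X, and kappa was 0.405, 0.728, 0.664 and 0.712 for all of these but the match within 1 bin. Requiring 80% of the bins put 4 or more other strains as active in 19.3% of C57BL/6J-active and 18.5% of A/J-active segments. An active bin of the silent strain lay within 5 kb in 46.7% and 41.2%, and within 200 bp in 4.35% and 1.54%. No paired analysis was possible because each strain has 1 segmentation over its 3 mice. Depth is unknown, so its limits on short segments could not be given.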

Other observations

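Several segments outside the longest 10 had an active form in a single strain of the 9 or a silent form in few. An A/J-active segment of 3000 bp at chr12:33105401-33108400 touched no protein-coding gene and was silent in all 7 other strains. One of 2000 bp in Ifi208, an interferon-inducible gene, was likewise silent in all 7. In the other direction the segment of 2400 bp in Dpy19l3 was active in all 7 other strains, so A/J alone was silent there, and that of 2800 bp at Cx3cr1, the fractalkine receptor of monocytes and macrophages, was active in 6. These were chosen after their values were seen. Camk2b, a calcium-dependent kinase, had 6 C57BL/6J-active segments with 9000 bp together, the most segments of any gene, and Tiam2, an exchange factor for Rac, had 5 with 10600 bp.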
